A study of Mus musculus with 32 samples.

Results

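The RNA of 10 genes of iron handling was followed through 32 primary mouse melanomas. They were the ferritin chains Fth1 and Ftl1, the ferritin receptor Ncoa4, the uptake genes Trf, Tfrc and Slc11a2, the exporter Slc40a1, the regulator Ireb2, the heme-degrading enzyme Hmox1 and the lipid peroxidase Gpx4. Each was taken as the row of the deposited tables whose gene identifier carries that symbol in the mouse annotation, which gave 10 of 50600 genes. The members were chosen by the role of their products and by a measured value, the count of Fth1, which leads the table in many of these tumours. The high rank and level of Fth1 are therefore given as a description and not tested. Its differences between groups and its relations over tumours were tested like those of the other members.

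All mice, of a C57BL/6J background, carried Tyr::NrasQ61K, an oncogene driven in melanocytes by the tyrosinase promoter, 1 lost copy of the tumour suppressor Cdkn2a (Cdkn2a-/+) and Cdh1F/F, an E-cadherin gene that Cre recombinase can delete. Mice of the Ecad groups had no Cre. Those of the ΔEcad groups carried a further transgene, which the labels write as Tyr::NRAS/° and the study's methods give as the melanocyte Cre line Tyr::CreA, so that only cells of the pigment lineage were to lose Cdh1. There were 8 tumours of each genotype and sex, no treatment, and no age in the labels. It is not stated whether every tumour came from its own mouse, so p-values measure the spread between these tumours.

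Iron enters most cells bound to transferrin, the product of Trf, through the transferrin receptor Tfrc. In the endosome the divalent metal transporter Slc11a2 (DMT1) passes the released iron into the cytosol. Iron that is not used is stored in ferritin, a hollow shell of heavy chains (Fth1), which oxidise ferrous iron, and light chains (Ftl1), and NCOA4 carries ferritin to the lysosome when iron is needed. Slc40a1 (ferroportin) is the exporter of iron, and Hmox1 (heme oxygenase) releases iron from heme. Iron regulatory proteins, of which Ireb2 encodes one (IRP2), bind a hairpin in the RNA when iron is low. Bound in a 5′ UTR the hairpin holds back translation, and bound in the 3′ UTR of Tfrc it protects the RNA from decay. Gpx4 reduces lipid peroxides and so restrains ferroptosis, a cell death that depends on iron. Bulk tumour RNA also holds that of macrophages and red blood cells, both of which handle much iron.

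The hairpin, the iron-responsive element, is the binding site of the iron regulatory proteins, so its sequences are shown. A match was a C, any 5 bases, the loop CAGTGN and 5 bases pairing with the first 5 (G with U allowed), on the transcript strand, in GENCODE M21 transcripts on GRCm38. Capitals mark the loop.
Fth1 5′ UTR, chr19:9982733-9982759, plus strand: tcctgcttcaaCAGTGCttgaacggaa
Ftl1 5′ UTR, chr7:45459780-45459806, minus strand: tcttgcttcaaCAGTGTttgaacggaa
Slc40a1 5′ UTR, chr1:45925466-45925492, minus strand: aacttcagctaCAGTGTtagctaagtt
Tfrc 3′ UTR site A, chr16:32631220-32631246, plus strand: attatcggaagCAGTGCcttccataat
Tfrc 3′ UTR site B, chr16:32631599-32631625, plus strand: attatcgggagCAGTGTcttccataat
Tfrc 3′ UTR site C, chr16:32631664-32631690, plus strand: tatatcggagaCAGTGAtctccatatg
Tfrc 3′ UTR site D, chr16:32631711-32631737, plus strand: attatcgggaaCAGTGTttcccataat

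The 3 genes with a match in the 5′ UTR had 1 each and Tfrc had 4 in the 3′ UTR. Of 21901 protein-coding genes, 0.142% held this pattern in a 5′ UTR and 0.589% in a 3′ UTR. No UTR of the other 6 members held these letters. Hairpins that depart from this pattern, such as those with an unpaired base within the paired stem, were not searched for. The search thus cannot show that these 6 members, Slc11a2 among them, lack an iron-responsive element, nor that Tfrc holds only 4. The counts below measure RNA, so translation that is held back at a 5′ hairpin is not seen in them.

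The libraries held 24036333 to 63923086 counts. The melanocytic markers Mitf, Tyr, Tyrp1, Dct, Pmel, Mlana and Sox10 summed to at least 5773 TPM (the deposited transcript level, scaled for gene length and library size) in 31 tumours. ΔEcad male 7 had 31.5 TPM, with 2 of the 7 under 1 TPM. ΔEcad female 3 had all 6 red blood cell markers and 4 of 8 macrophage markers (Adgre1, C1qa, C1qb and Cd163) at 0. The library labelled ΔEcad male 2 had 0 counts of Y-linked genes and 6.41 TPM of Xist, and the library labelled ΔEcad female 1 had 92 counts of Y-linked genes, against at most 4 in the other females. ΔEcad male 7, ΔEcad female 3, ΔEcad male 2 and ΔEcad male 1, whose mitochondrial share of 0.256% of counts was the lowest, are called the libraries that stand apart, a choice made after their values were seen. Cdh1, the targeted gene, had a median of 145 TPM in Ecad males against 3.29 TPM in ΔEcad males. Among females the medians were 30.6 TPM (Ecad) against 46.7 TPM (ΔEcad), with wide overlap, so the genotype of the females was read from the labels alone.

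Fth1 (ENSMUSG00000024661, chromosome 19, 9980598 to 9985098) was the most counted of all genes in 15 of 32 tumours and among the first 4 in 28. Elsewhere the first place was held by mt-Co1 in 8 tumours, by Dct in 7, and by Eef1a1 and Col1a1 in 1 each. Fth1 took a median of 1.32% of all counts. Its lowest share was 0.157% in ΔEcad male 7 (95% Wilson interval 0.156 to 0.158%, counting error only), where its rank by counts was 44. Its highest was 5.74% in ΔEcad male 8 (5.73 to 5.74%), where Fth1 RNA came to 158894 TPM, or 15.9% of all transcripts by TPM. At these depths such intervals are narrow for any abundant gene, so their lack of overlap is no test of the share.

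**Figure D1:**
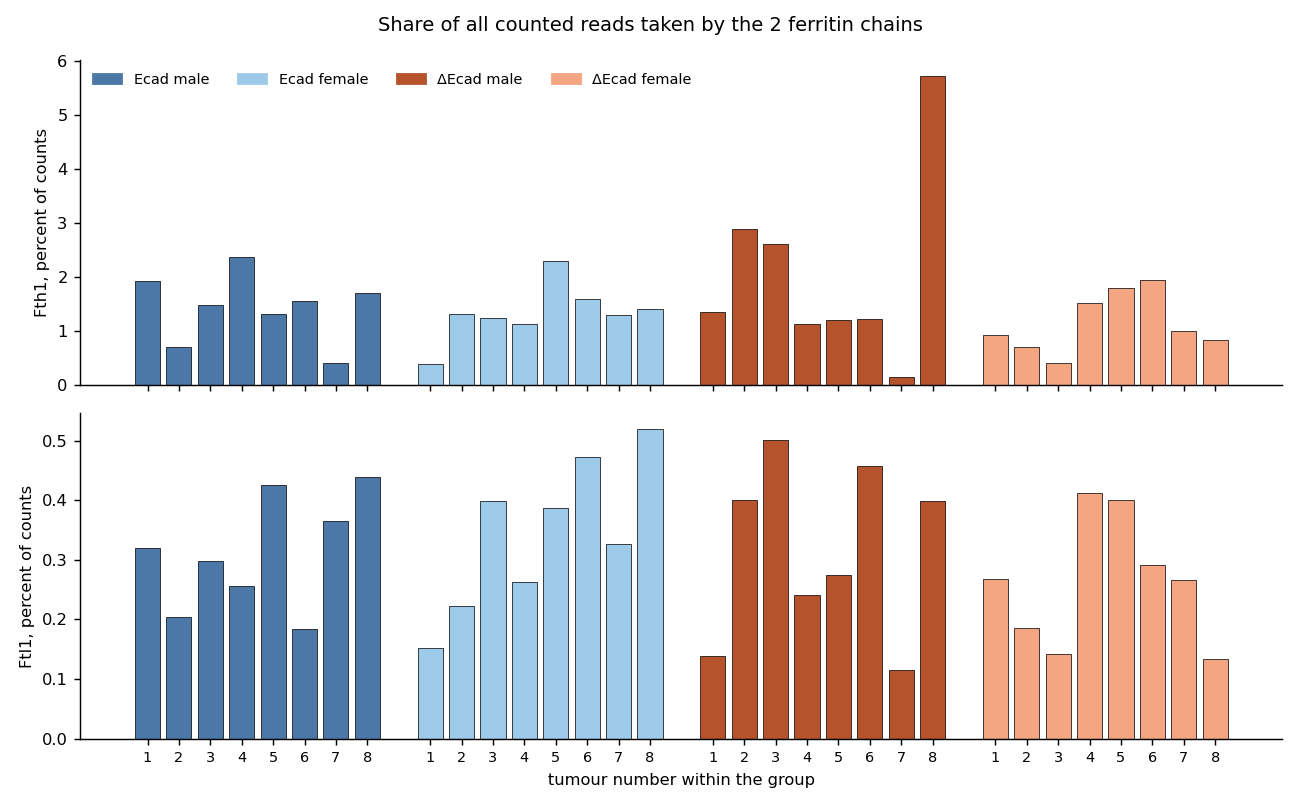
Percent of all counts (vertical axis) taken by Fth1 (top) and Ftl1 (bottom) in each of 32 tumours (horizontal axis, number within the group), coloured by group. Fth1 runs from 0.157% in ΔEcad male 7 to 5.74% in ΔEcad male 8, and Ftl1 from 0.115% to 0.520%.

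Per group, the Fth1 level was lowest, median and highest at 14202, 48435 and 74199 TPM in Ecad males and at 14560, 43325 and 77504 TPM in Ecad females. It was 5230, 43614 and 158894 TPM in ΔEcad males and 16092, 30202 and 65942 TPM in ΔEcad females. The groups overlapped over most of their range, and the ΔEcad males held both the highest and the lowest tumour. Bulk RNA cannot tell fewer cells of a type from less RNA per cell, here and for every gene that follows.

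Ftl1 (ENSMUSG00000050708, chromosome 7, 45457944 to 45459884) had a rank between 8 and 93 by counts. Its lowest, median and highest levels were 3715, 6303 and 8750 TPM in Ecad males, 3657, 7609 and 10661 TPM in Ecad females, then 2047, 6844 and 9831 TPM in ΔEcad males, and 3196, 5122 and 8104 TPM in ΔEcad females. Its span was narrower than that of Fth1, with a highest level 5.21 times the lowest over all tumours, against 30.4 times for Fth1. The ratio of heavy to light chain RNA by TPM had a median of 6.38. It ran from 1.74 in Ecad male 7, where Ftl1 stood at 8168 TPM and Fth1 at the lowest level of its group, to 22.2 in ΔEcad male 8, where Ftl1 stood at 7145 TPM and Fth1 at its highest. Ferritin chain copies bear on Ftl1 more than on Fth1. Of the 50-base words of its transcripts 75.0% occur in other genes, chiefly Ftl1-ps1 (9.20 TPM on average), and it overlaps Gm10252 and Gm22133, so it is uncertain. For Fth1 that share was 3.59%.

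The 10 genes spanned a wide range. By median TPM over all tumours, Fth1 (43614) was followed by Ftl1 (6401), Gpx4 (586), Hmox1 (268), Tfrc (34.7), Slc11a2 (34.5), Ncoa4 (17.3), Trf (16.8), Ireb2 (14.0) and Slc40a1 (4.75). Fth1 lay above Ftl1, Ftl1 above Gpx4, and Hmox1 above Tfrc in 32 of 32 tumours. Gpx4 lay above Hmox1 in 26, Slc11a2 above Ncoa4 in 30 and Ireb2 above Slc40a1 in 29. Tfrc and Slc11a2 could not be ordered, with Tfrc higher in 12 tumours, nor could Ncoa4 and Trf, with Ncoa4 higher in 13, and Trf lay above Ireb2 in only 21. Ferritin RNA was therefore far above that of the uptake, export and regulatory genes in every tumour.

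**Figure D2:**
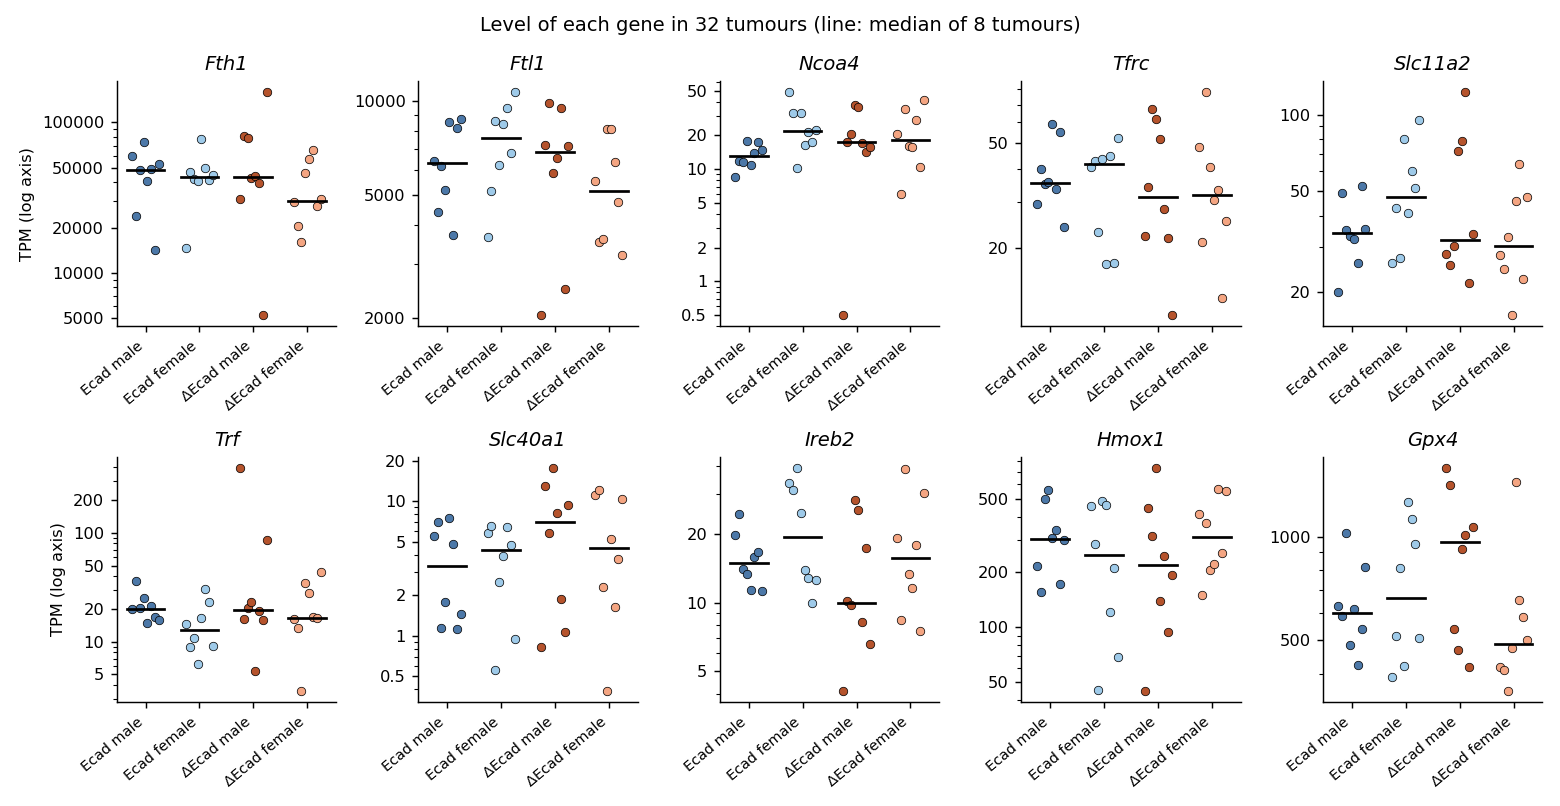
Level in TPM (vertical log axes, 1 panel per gene) of the 10 genes in each tumour, by group, with a line at the median of 8 tumours. Groups overlap in every panel, and single tumours lie far off, such as ΔEcad male 1 at 394 TPM of Trf and 0.5 TPM of Ncoa4.

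Groups were compared to ask whether deletion of Cdh1, the sex of the mouse, or both together went with a change in iron genes. A gene was called where its adjusted p (edgeR quasi-likelihood test, Benjamini-Hochberg adjustment over 17717 genes) was below 0.05 and its log2 fold change beyond 1 either way. All 10 passed the filter on low counts and none was called in any comparison, nor by DESeq2 or either use of limma on the 32 tumours. The share of all genes called was 1.2% for ΔEcad against Ecad in females, 0.0% for the same in males, 0.0508% for females against males in Ecad, 0.0395% in ΔEcad and 0.0% for the interaction. The edgeR call thus had little reach in any of them. DESeq2 on the 32 tumours called 7.23, 0.119, 5.77, 0.135 and 6.91% of all genes in the same order. Limma with sample weights called at most 0.519%, between Ecad sexes. At an unadjusted p under 0.05 there were 0, 3, 1, 4 and 3 of the 10 in that order, beside 15.3, 10.2, 16.0, 8.81 and 17.7% of all genes. The 3 in males (Trf, Gpx4 and Slc11a2) and the 1 between Ecad sexes (Ncoa4) were higher, as were 7.19 and 5.71% of all genes. The 4 between ΔEcad sexes (the same 3 and Fth1) and the 3 of the interaction (Trf, Gpx4 and Slc11a2) were lower, as were 5.49 and 6.94% of all genes. The values of every member overlapped in each of the 4 comparisons of 2 groups, while 0.0339, 0.0282, 0.113 and 0.00564% of all genes had groups that did not overlap. The smallest adjusted p of a member was 0.104, for the interaction of Slc11a2. Comparisons that share a group of tumours are not independent of each other, so the same tumours appear on both sides of several values below.

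**Figure D3:**
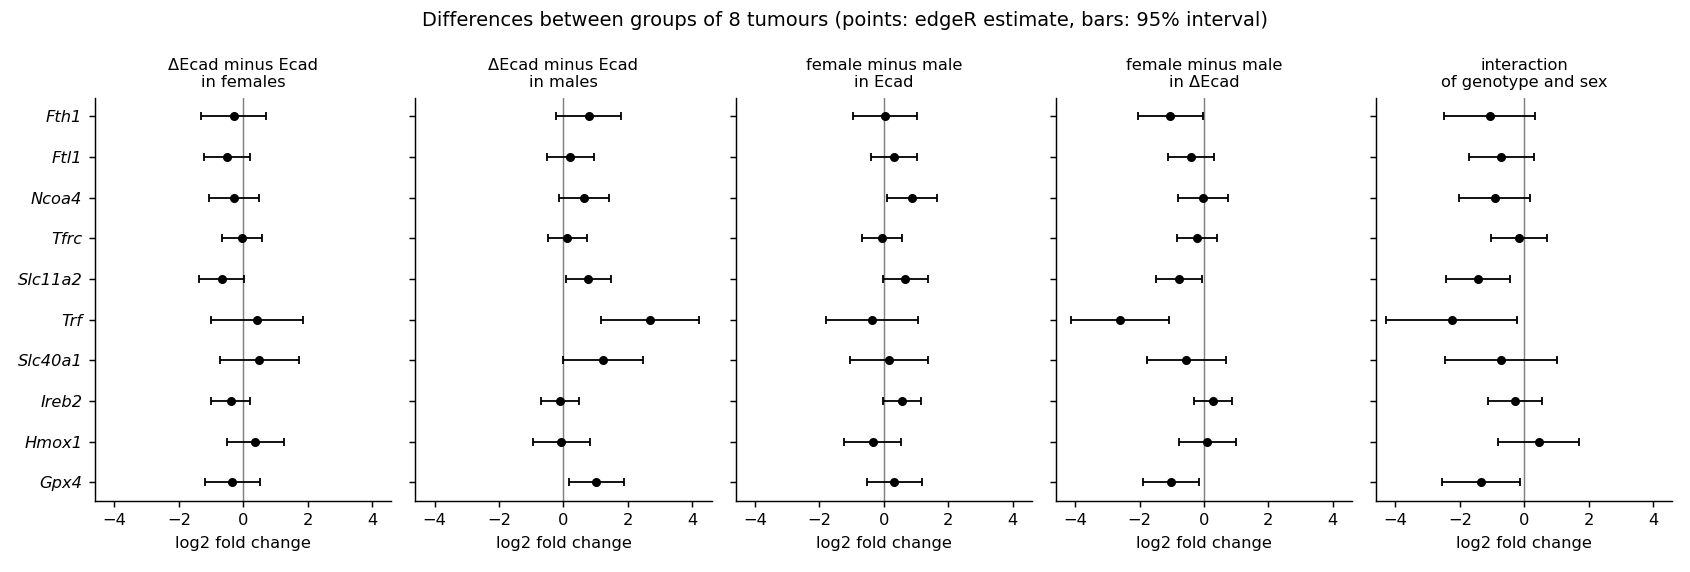
Log2 fold change (horizontal axes) of each gene in the 5 comparisons, as the edgeR estimate with its 95% interval over groups of 8 tumours. Intervals of most genes cross 0 in every panel, and the farthest from 0 are those of Trf where ΔEcad males enter.

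Among the storage genes, Fth1 was lower in ΔEcad than in Ecad females by a log2 fold change of -0.30 (SE 0.49) and higher in males by 0.78 (SE 0.49), with edgeR adjusted p of 0.854 and 0.573. Between the sexes it was 0.04 (SE 0.49) in Ecad and -1.04 (SE 0.50) in ΔEcad (edgeR adjusted p 0.981 and 0.562). The values with ΔEcad males moved with single tumours, either way. Without ΔEcad male 8 the male genotype value was 0.28 and the ΔEcad sex difference -0.50. The ΔEcad sex difference was -1.22 without ΔEcad male 7, and the male genotype value was 0.96 without Ecad male 4. Ftl1 values ran from -0.50 (SE 0.35) between female genotypes to 0.31 (SE 0.35) between Ecad sexes. Between females the melanocytic markers also differed, with a median sum of 19526 TPM in ΔEcad against 29473 TPM in Ecad, as did the keratinocyte markers, with 6187 against 7.96 TPM. With both scores as covariates the female value of Fth1 was -0.09 (SE 0.43). The part of either tissue in the Fth1 value was not tested. For both chains the 95% intervals of the genotype values left room for changes in either direction, from -1.30 to 0.70 for Fth1 and from -1.22 to 0.22 for Ftl1 in females.

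Ncoa4 (ENSMUSG00000056234, chromosome 14, 32159865 to 32179855) had lowest, median and highest levels of 8.60, 12.98 and 17.7 TPM in Ecad males and 10.2, 21.9 and 48.6 TPM in Ecad females. It was 0.50, 17.3 and 37.4 TPM in ΔEcad males and 6.05, 18.2 and 41.3 TPM in ΔEcad females. In Ecad tumours 7 of 8 females lay above the male median, and the log2 difference was 0.88 (SE 0.38). For it edgeR gave an adjusted p of 0.244, and the alternatives gave between 0.0276 and 0.9997. The smallest of these p came from DESeq2 without the libraries that stand apart, where the value was 0.87. Ecad females also had lower median sums than Ecad males of keratinocyte (7.96 against 3833 TPM), skeletal muscle (8.45 against 2171 TPM) and adipocyte markers (28.7 against 226 TPM), and with keratinocyte and melanocytic scores as covariates the Ncoa4 value was 0.48 (SE 0.44). The part of the other markers was not tested. ΔEcad male 1 had 32 counts of Ncoa4, against 379 to 4272 in the other tumours. Ncoa4 shares 39.1% of its 50-base words with Gm6768 (0.197 TPM on average) and is uncertain to that degree.

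Trf (ENSMUSG00000032554, chromosome 9, 103204001 to 103230444), the uptake gene taken first, had male fold changes that turned on 1 tumour. Its lowest, median and highest levels were 14.9, 20.1 and 35.8 TPM in Ecad males, 6.27, 12.8 and 30.4 TPM in Ecad females, then 5.32, 19.7 and 394 TPM in ΔEcad males, and 3.53, 16.6 and 43.2 TPM in ΔEcad females. The medians of the male groups were thus alike, and 4 of 8 ΔEcad males lay above the Ecad male median. ΔEcad male 1 held 394 TPM, or 18840 counts, and ΔEcad male 8 held 85.5 TPM, against at most 43.2 TPM in the other 30 tumours. The male genotype difference was 2.69 (SE 0.74, edgeR adjusted p 0.365) and 0.72 (SE 0.50, edgeR adjusted p 0.674) without ΔEcad male 1. DESeq2 gave 0.59 and limma with sample weights 0.25 for it on all tumours. Likewise the ΔEcad sex difference went from -2.61 to -0.60 and the interaction from -2.25 to -0.32 without that tumour. In females the genotype difference was 0.43 (SE 0.70, edgeR adjusted p 0.851). Trf overlaps the readthrough gene Gm20425, which had no counts, and shares 69.3% of its 50-base words with other genes, mostly with that one, so it is uncertain.

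Tfrc (ENSMUSG00000022797, chromosome 16, 32608920 to 32632794), whose RNA carries the 4 hairpins shown above, differed least between groups among the 10. Its median was 35.4 TPM in Ecad males, 41.8 TPM in Ecad females, then 31.2 TPM in ΔEcad males and 31.7 TPM in ΔEcad females. The extremes were 11.2 TPM in ΔEcad male 8, the tumour with the most Fth1, and 78.03 TPM in ΔEcad female 3. Log2 fold changes lay between -0.22 and 0.12 in the 4 comparisons of 2 groups, each with an SE of 0.30. In females the 95% interval of the genotype difference ran from -0.66 to 0.57, and a change within it could not be told from none.

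Slc11a2 (ENSMUSG00000023030, chromosome 15, 100387898 to 100425072) had lowest, median and highest levels of 20.1, 34.2 and 52.5 TPM in Ecad males, 26.1, 47.3 and 95.01 TPM in Ecad females, then 21.8, 32.1 and 123 TPM in ΔEcad males, and 16.2, 30.5 and 64.2 TPM in ΔEcad females. The ΔEcad males split into 5 tumours at 21.8 to 33.9 TPM and numbers 4, 5 and 6 at 71.8 to 123 TPM. The genotype difference was -0.67 (SE 0.35, edgeR adjusted p 0.359) in females and 0.77 (SE 0.35, edgeR adjusted p 0.459) in males. Without ΔEcad male 6 the male value was 0.41, and without ΔEcad male 7 it was 0.91. Its interaction, -1.45 (SE 0.49, 95% interval -2.44 to -0.45), was the member value nearest to the threshold. For it edgeR gave an adjusted p of 0.104, and the alternatives gave between 0.0246 and 0.597. It was called under 1 of them, DESeq2 without the libraries that stand apart, at -1.66, as was that of Ncoa4 at -1.28 (DESeq2 adjusted p 0.0371). That fit called 8.26% of all genes, where edgeR on all tumours called 0.0%. Slc11a2 overlaps Gm5475, which averaged 3.34 counts, and is uncertain to that degree.

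The exporter Slc40a1 (ENSMUSG00000025993, chromosome 1, 45908068 to 45926523) was the lowest of the 10 and among the most uneven. It ran from 1.12 to 7.50 TPM in Ecad males (median 3.28), from 0.56 to 6.59 TPM in Ecad females (4.32), from 0.83 to 17.7 TPM in ΔEcad males (6.95) and from 0.39 to 12.03 TPM in ΔEcad females (4.49). Above the highest Ecad level, 7.50 TPM, a line read from the data, lay 7 ΔEcad tumours, 4 male and 3 female. The lowest of all was ΔEcad female 4, so the ranges overlapped. Log2 fold changes of ΔEcad against Ecad were 0.50 (SE 0.60, edgeR adjusted p 0.780) in females and 1.22 (SE 0.61, edgeR adjusted p 0.493) in males. Without ΔEcad female 2 the female value was 0.26, and without Ecad female 6 it was 0.72.

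The regulator Ireb2 (ENSMUSG00000032293, chromosome 9, 54863789 to 54912530) ran from 4.11 TPM in ΔEcad male 1 to 39.1 TPM in Ecad female 3. Its medians were 15.0 TPM in Ecad males, 19.4 TPM in Ecad females, then 9.99 TPM in ΔEcad males and 15.7 TPM in ΔEcad females. The female median was above the male one in both genotypes, with log2 fold changes of 0.56 (SE 0.29, edgeR adjusted p 0.349) in Ecad and 0.27 (SE 0.29, edgeR adjusted p 0.819) in ΔEcad. Ireb2 moved with the transcript length balance of the library, the rank correlation over genes between length and deviation from the gene's mean, which is positive where long transcripts ran high. Over 32 tumours r was 0.72 and Spearman's rho 0.80 (permutation p adjusted over 130 pairs of gene and library measure, 0.00065 and 0.0013), and r was 0.72 without the 2 farthest tumours. The balance is built from the log2 CPM of these same tumours by gene length, so long genes tend to rise with it and short ones to fall. The p-values are against an r of 0 and not against genes of like length, so they do not single out Ireb2. With that balance as a covariate, an alternative added after the data were seen, the sex differences of Ireb2 were 0.33 (SE 0.23) in Ecad and 0.11 (SE 0.23) in ΔEcad. Without Ecad female 3 the Ecad value was 0.30, and without ΔEcad female 3 the ΔEcad value was 0.07. Leaving out single tumours raised them as well, to 0.73 in Ecad without Ecad female 8 and to 0.42 in ΔEcad without ΔEcad male 4.

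Hmox1 (ENSMUSG00000005413, chromosome 8, 75093621 to 75100589) varied among tumours more than between groups. The lowest, median and highest levels were 156, 303 and 559 TPM in Ecad males, 45.6, 247 and 488 TPM in Ecad females, then 45.0, 219 and 737 TPM in ΔEcad males, and 150, 311 and 564 TPM in ΔEcad females. Each group held tumours below the lowest and above the highest of the 4 group medians. Its log2 fold changes lay between -0.34 and 0.38 in the comparisons of 2 groups, each with an SE of 0.43.

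Gpx4 (ENSMUSG00000075706, chromosome 10, 80047166 to 80056439) had lowest, median and highest levels of 425, 601 and 1023 TPM in Ecad males, 391, 662 and 1262 TPM in Ecad females, then 417, 965 and 1584 TPM in ΔEcad males, and 356, 488 and 1439 TPM in ΔEcad females. The ΔEcad females stayed at or under 653 TPM but for number 5, and 1 of 8 lay above the ΔEcad male median. Log2 fold changes were 1.02 (SE 0.42, edgeR adjusted p 0.443) between male genotypes and -1.02 (SE 0.42, edgeR adjusted p 0.529) between ΔEcad sexes, which share the ΔEcad males. The interaction was -1.36 (SE 0.59, edgeR adjusted p 0.220). Without ΔEcad male 1, the highest tumour, the male value was 0.66 and the ΔEcad sex difference -0.63. The male value was 1.16 without ΔEcad male 7, and the ΔEcad sex difference was -1.41 without ΔEcad female 5. Gpx4 also moved with the transcript length balance (r -0.67, rho -0.64, permutation p adjusted over the same 130 pairs, 0.00217 and 0.00487, and r -0.55 without the 2 farthest tumours). Like that of Ireb2, this relation arises in part from how the balance is built, and its p-values do not single out Gpx4. With that balance as a covariate the male value was 0.69 and the ΔEcad sex difference -0.60. Gpx4 shares 51.4% of its words with other genes, chiefly Gpx4-ps2 (132 TPM on average), so it is uncertain.

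By median, the log2 fold changes of the 10 genes were -0.29 between female genotypes, 0.71 between male genotypes, 0.23 between Ecad sexes, -0.48 between ΔEcad sexes and -0.82 for the interaction. Over all 17717 genes the same medians were -0.02, 0.11, 0.05, -0.06 and -0.16. Of the 10 interaction values 9 were below 0, Hmox1 being the exception at 0.45 (SE 0.61), and all but 3 of the 10 had 95% intervals that crossed 0. The median of all genes, -0.16, was below 0 as well. Several members varied together over the tumours, so the 9 are not separate results. The 3 were Slc11a2, Gpx4 and Trf. With limma on log2(TPM + 1), which moved the median of all genes by 0.34, the interaction values of Tfrc and Ireb2 lay above 0, and with limma and sample weights that of Trf did.

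Relations between the members, and with marker scores (the mean over a list of marker genes of log2 CPM, counts scaled to library size), were tested over 32 tumours for 12 pairs. Both ferritin chains moved together, with r = 0.70 and Spearman's rho = 0.66 for Fth1 and Ftl1 (permutation p adjusted over 12 relations, 0.00012 and 0.00096), and r = 0.63 without the 2 farthest tumours. Within groups of 8, r was 0.81 in Ecad females, 0.83 in ΔEcad males, 0.87 in ΔEcad females and 0.12 in Ecad males. Ecad male 7, with the ratio of 1.74 given above, was among the latter. By rank the 2 chains were not closest to each other among the members. Gpx4 had a rho of 0.73 with Fth1 and of 0.71 with Ftl1 over the 32 tumours. Its r was lower than that of the chains, at 0.66 and 0.59. These pairs were outside the 12 and were not tested.

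Fth1 also rose with the melanocytic score (r = 0.63, rho = 0.47, permutation p adjusted over 12 relations, 0.0033 and 0.0371). Without ΔEcad male 7 and ΔEcad female 8, the 2 farthest in that score, r was 0.36. Without ΔEcad male 7 alone it was 0.39 (permutation p adjusted over 12 relations, 0.116), so the relation rests largely on that tumour. Within groups r ran from -0.30 in Ecad males to 0.86 in ΔEcad males. The other 10 relations did not pass. Those of Fth1, Ftl1, Hmox1 and Slc40a1 with the macrophage score had r of 0.10, -0.11, 0.13 and 0.34 and rho of 0.04, -0.27, 0.12 and 0.35, with permutation p for r adjusted over 12 relations of 0.674, 0.674, 0.674 and 0.206. The sum of the 8 macrophage markers ran from 24.2 TPM in ΔEcad female 3 to 13499 TPM in ΔEcad female 8. The score tested, a mean of log2 CPM, ran from -2.03 in ΔEcad female 3 to 7.99 in ΔEcad male 7. It was 5.50 in ΔEcad female 8. Without ΔEcad female 3, Ftl1 fell with the macrophage score (r = -0.46, permutation p adjusted over 12 relations, 0.0384). Without the 4 libraries that stand apart, r with this score was 0.58 for Slc40a1 and 0.47 for Hmox1 (permutation p adjusted over 12 relations, 0.0093 and 0.0496). On log2(TPM + 1) over all tumours, r of Slc40a1 with the macrophage score was 0.42 (permutation p adjusted over 12 relations, 0.0455). Within groups r of Fth1 with that score ran from -0.69 in ΔEcad males to 0.59 in Ecad males. Tfrc with the proliferation score had r = 0.28 (rho 0.28) and Tfrc with Fth1 r = 0.015 (rho 0.03) (permutation p adjusted over 12 relations, 0.298 and 0.956).

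**Figure D4:**
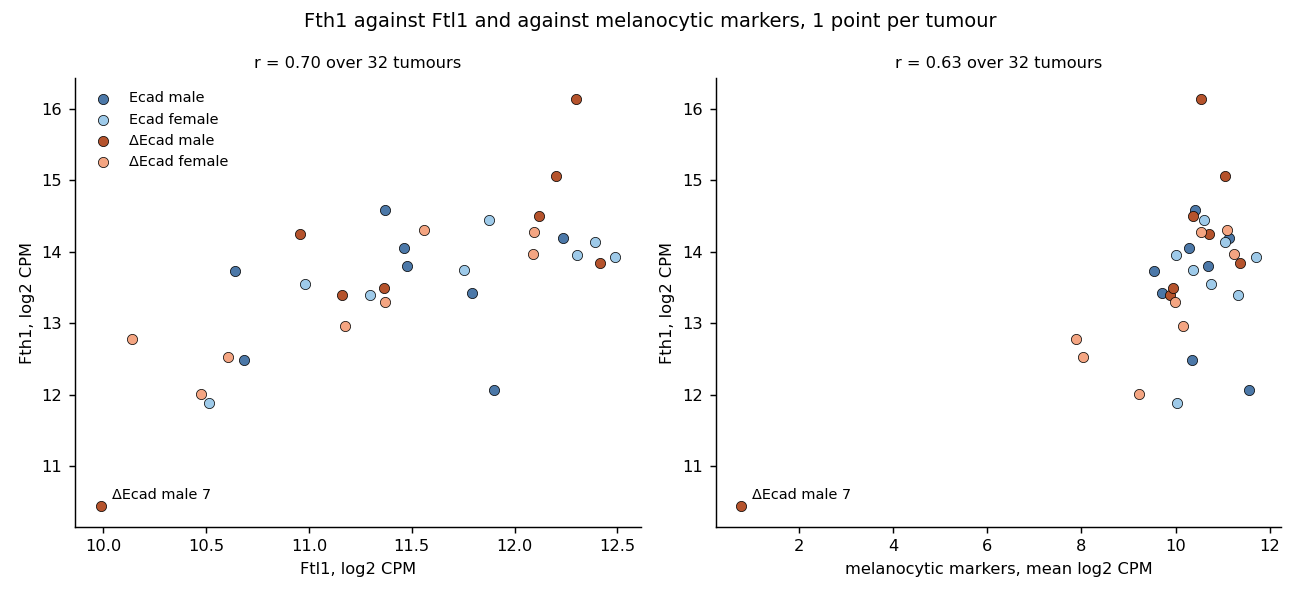
Fth1 (vertical axes, log2 CPM) against Ftl1 (left, log2 CPM) and against the mean of 7 melanocytic markers (right, log2 CPM) in 32 tumours coloured by group. The left panel shows a broad rise (r = 0.70), and the right panel a cluster of tumours with ΔEcad male 7 far to the lower left (r = 0.63).

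The genes most like each member were read from Spearman's rho of log2 CPM over the same 32 tumours, which share library depth and composition, and are a description. For Fth1 they were Cystm1 (0.77), Akr1a1, an aldo-keto reductase (0.77), and Nck2 (0.76). For Ftl1 they were Slc48a1, a heme transporter (0.83), Abhd12 (0.82) and Wbp2 (0.82). Hmox1 had Slc2a6 (0.77), Slc7a11, the cystine importer that feeds glutathione synthesis (0.73), and Fpr1, a formyl peptide receptor of neutrophils and monocytes (0.71). Gpx4 had Bri3 (0.92), Alg1 (0.92) and Naxe (0.90), and Ireb2 had Rbm41 (0.93), Iws1 (0.93) and Nup153 (0.92). Ncoa4 came with Cog5 (0.90), Cyb5d1 (0.89) and Cyfip1 (0.87), and Slc11a2 with Bace2, Irgq and Naglu (0.76 each). Trf had Dcps (0.77), Iah1 (0.74) and Smco4 (0.69). Lower values led for Slc40a1, with Fcrl1 (0.67), Creg2 (0.66) and Lmcd1 (0.65), and for Tfrc, with Atp6v1c1, a proton pump subunit (0.65), Mtrf1 (0.64) and Gm37933 (0.61). Pseudogenes with shared sequence, left out above, followed their parents, such as Gm6977 for Fth1 (0.97), Ftl1-ps1 for Ftl1 (0.92) and Gpx4-ps2 for Gpx4 (0.98).

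Beyond the 10 members, 63 further genes of iron and heme handling and of the defence against ferroptosis were listed by role, of which 59 were tested. None was called in any of the 5 comparisons. In the order used above, an unadjusted p under 0.05 was reached by 15.3, 16.9, 10.2, 10.2 and 16.9% of the 59, beside 15.3, 10.2, 16.0, 8.81 and 17.7% of all genes. The smallest adjusted p, 0.0607, belonged to the interaction of Slc39a8, a metal importer named after its values were seen, at 3.19 (SE 0.89). In each list the most abundant gene is given as its mean TPM and SD over 32 tumours. Lcn2, a siderophore-binding protein of neutrophils and epithelia, stood at 68.0 ± 130 TPM. The iron chaperone Pcbp1 was at 544 ± 175 TPM and the ferroxidase ceruloplasmin (Cp) at 29.0 ± 64.02 TPM, with its highest level of 353 TPM in ΔEcad male 8, the tumour with the most Fth1. Aco1, which encodes the other iron regulatory protein, was at 36.3 ± 12.6 TPM, and its genotype differences were 0.01 (SE 0.23) in females and 0.11 (SE 0.23) in males. The remaining ones were Hfe2 (hemojuvelin, 11.6 ± 19.5 TPM), Slc48a1 (331 ± 158 TPM), the mitochondrial glutaredoxin Glrx5 (207 ± 113 TPM), Slc3a2, the partner chain of Slc7a11 (506 ± 346 TPM), and G6pdx, which supplies NADPH (130 ± 49.2 TPM). Of the hepcidin axis only 3 of 6 genes had enough counts to test, and the hepcidin gene Hamp itself averaged 0.442 TPM.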

How the data were processed

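RNA of 32 primary mouse melanomas was sequenced by the authors from stranded poly-A libraries as read pairs of 100 bases. Per the labels and the study's methods, reads were checked with FastQC 0.11.5, aligned with STAR to GRCm38.p5 (mm10) and assigned to GENCODE genes. The authors deposited 1 table of raw counts per gene and 1 of TPM, counts scaled for gene length and library. The use of strand in counting and of a batch correction is not given for these tables. All 32 value columns of each table were mapped to samples by name, and 50376 of 50600 gene identifiers had a symbol.

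Genes that passed edgeR's filterByExpr (17717) were fitted in 1 quasi-likelihood model with robust estimation over all 32 tumours, with TMM factors and a term per group (edgeR 4.0.16, R 4.3.3). The 5 comparisons were contrasts of that model, with p-values adjusted by the Benjamini-Hochberg method over all genes. Levels between genes were compared as TPM only. Relations over tumours used log2 CPM (prior count 1) and 100000 permutations, two-sided, whose smallest p is 1e-05. Intervals of a share are Wilson intervals and cover counting error only. As alternatives the test was run with limma 3.58.1, by voom with sample weights or by trend on log2(TPM + 1), and with DESeq2 1.42.0, and the fit with RLE and upper-quartile factors, no low-count filter, no robust estimation, only the tumours compared, marker scores as covariates, a replicate block, looser call thresholds, another prior count and leaving out each tumour. Added after seeing the data were the transcript length balance as a covariate and the fit without the 4 libraries that stand apart. The fits were also run on simulated counts, drawn without libraries that stand apart, and the outcome is not reported here.

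The members, marker lists and pathway lists were chosen with earlier results of these data known. Named were the 10 members, in each of 9 pathway lists the gene of highest mean TPM, and for each member the 3 genes of highest rho. Genes that overlap a member or share over 1% of its 50-base words were left out of the latter. The printed hairpins and gene positions were read from the GRCm38 genome by way of GENCODE M21.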

Additional observations from a re-analysis of the deposited data

Results flagged for a closer look

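In each of the 40 sets of 8 values (10 genes in 4 groups, log2 CPM), the lowest and the highest tumour were set against the rest by Dixon's criterion, and 3 stood apart from their own group. Chance alone flags about 1 in 20 such sets.

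Fth1 in Ecad female 1 was at 11.88 log2 CPM, and the next lowest of its group at 13.39. Trf in ΔEcad female 3, the tumour with all red blood cell markers at 0, was at 1.80, and the next at 3.87. Ncoa4 in ΔEcad male 1, the tumour with the highest Trf, was at 0.71 (32 counts), and the next at 4.27.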

How the results depend on the processing

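Over 50 member values (10 genes in 5 comparisons) the alternatives gave 2390 further values, of which 2328 kept direction and side of the threshold, 60 turned direction and 2 passed the threshold. The 24 turned ones outside the leaving-out of single tumours lay between -0.21 and 0.30. With keratinocyte and melanocytic scores as covariates they were, between female genotypes, 0.28 for Tfrc, -0.053 for Slc40a1 and 0.13 for Ncoa4, then 0.073 for Hmox1 between male genotypes, -0.011 for Fth1 between Ecad sexes, 0.04 for Ncoa4 between ΔEcad sexes and 0.10 for the interaction of Tfrc. With limma on log2(TPM + 1) they were -0.14 for Ftl1 and -0.21 for Tfrc between male genotypes, 0.30 for Ncoa4 between ΔEcad sexes, and 0.18 for Tfrc and 0.093 for Ireb2 in the interaction. Without the 4 libraries that stand apart they were 0.083 for Hmox1 (0.031 with DESeq2) and 0.018 for Ireb2 between male genotypes, 0.015 for Tfrc between Ecad sexes, and -0.0042 for Hmox1 and -0.011 for Ireb2 between ΔEcad sexes. Fth1 between Ecad sexes was -0.029 with upper-quartile factors and -0.15 with macrophage and red blood cell scores as covariates. With limma and sample weights Slc40a1 between Ecad sexes was -0.19 and the interaction of Trf 0.27. Ncoa4 between ΔEcad sexes was 0.0084 with no low-count filter and 0.013 with only the tumours compared. Members called were 0 everywhere but for the 2 interaction values with DESeq2 without those 4 libraries, a fit that called 8.26% of all genes. The cause was not tested.

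Leaving out single tumours turned 8 of the 50. Tfrc ran from -0.24 to 0.071 between female genotypes, from -0.009 to 0.24 between male genotypes and from -0.17 to 0.047 between Ecad sexes. Hmox1 ran from -0.30 to 0.16 between male genotypes and from -0.061 to 0.34 between ΔEcad sexes. Between Ecad sexes Fth1 ran from -0.096 to 0.29 and Slc40a1 from -0.057 to 0.37, and Ncoa4 between ΔEcad sexes from -0.19 to 0.11. Among the relations, r of Fth1 with the melanocytic score ran from 0.39 to 0.70, of Ftl1 with the macrophage score from -0.46 to -0.018, of Fth1 with the macrophage score from -0.15 to 0.29, of Tfrc with Fth1 from -0.15 to 0.18 and of Ncoa4 with Fth1 from -0.066 to 0.11.

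Without the 4 libraries that stand apart r was 0.31 for Fth1 with the melanocytic score (adjusted permutation p 0.253), and past the threshold at 0.47 for Hmox1 (0.0496) and 0.58 for Slc40a1 (0.0093) with the macrophage score. On log2(TPM + 1) it was past the threshold at 0.42 for Slc40a1 with the macrophage score and for Tfrc with the proliferation score. Relations near 0 changed sign: Tfrc with Fth1 to -0.14 on log2(TPM + 1), -0.014 centred on group means and -0.13 without the 4 libraries, Trf with the melanocytic score to -0.046 on log2(TPM + 1) and -0.0078 without them, and Ncoa4 with Fth1 to 0.011 on log2(TPM + 1), 0.074 without them and 0.29 with the length balance regressed out.

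With the tumour numbers as a replicate block no call on a member changed, and 1 gene in all was called between female genotypes in place of 213. Deviations of same-numbered tumours had correlations of -0.55 to 0.42 over 48 pairs, of which 18 were over 0.1. They were not set against tumours of different number, so the values cannot show whether the numbers mark pairs. The numbers were not taken as pairs in the main fit. Over all genes DESeq2 called 1281, 21, 1023, 24 and 1225 in the order of the report, where edgeR called 213, 0, 9, 7 and 0 (2719, 1814, 2828, 1561 and 3131 at an unadjusted p under 0.05), and limma with sample weights 1, 0, 92, 6 and 0. Depth limits the lowest values most, such as the 32 counts of Ncoa4 in ΔEcad male 1.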

Other observations

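Hmox1 was set beside a score of 5 neutrophil markers, as 1 of 130 pairs of a member with a marker score or library measure, a set put together after the data were seen. It rose with that score, with r = 0.52 and Spearman's rho = 0.67 (permutation p adjusted over 130 pairs, 0.0274 and 0.00325), and r was 0.66 without Ecad female 4 and ΔEcad female 3. By TPM, the tumour with the most Hmox1 was in each of the 4 groups also the one with the highest neutrophil score, namely Ecad male 4 (559 TPM, score 4.30), Ecad female 4 (488 TPM, 6.94), ΔEcad male 4 (737 TPM, 5.60) and ΔEcad female 6 (564 TPM, 3.32). By log2 CPM, on which the correlations rest, Ecad female 5 and ΔEcad male 2 had slightly more Hmox1 than Ecad female 4 and ΔEcad male 4. The macrophage score had r = 0.13 with Hmox1 (permutation p adjusted over 130 pairs, 0.706), and r = 0.47 without the 4 libraries that stand apart (permutation p adjusted over 12 relations, 0.0496). The part of neutrophil RNA in the level of Hmox1 was not tested.

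Of the 130 pairs, 13 had an adjusted permutation p under 0.05 for both r and rho, the largest being 0.048. Ftl1 rose with the melanocytic score (r 0.63, rho 0.66), and r was 0.62 without ΔEcad male 7 and ΔEcad female 8, where that of Fth1 went to 0.36. Slc40a1 rose with the T cell score (r 0.59, rho 0.55, and r 0.52 without the 2 tumours farthest in the score, as in what follows). The red blood cell score went with more Ftl1 (r 0.53, rho 0.50, and 0.40) and with less Ireb2 (r -0.53, rho -0.53, and -0.48). The adipocyte score went with less Ireb2 (r -0.52, rho -0.48, and -0.44) and less Ncoa4 (r -0.49, rho -0.61, and -0.48), and the skeletal muscle score with less Ncoa4 (r -0.46, rho -0.58, and -0.39). Besides Ireb2 and Gpx4, the transcript length balance went with less Trf (r -0.58, rho -0.54, and -0.52) and more Ncoa4 (r 0.50, rho 0.50, and 0.47). Relations with that balance arise in part from how it is built, as given for Ireb2, and are a description.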
